A study of Caenorhabditis elegans with 12 samples.

Results

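The hsp-16 small heat-shock genes of Caenorhabditis elegans were followed over the first 4 h after a move from 23 °C to 17 °C. The 6 genes hsp-16.1, hsp-16.2, hsp-16.11, hsp-16.41, hsp-16.48 and hsp-16.49 were read by 4 of the 22548 probe sets, the groups of short oligonucleotides that each report 1 transcript or a few like ones. Members were all probe sets whose annotated symbols lie within these 6 genes. One probe set (188282_at) reads hsp-16.2 alone and one (188444_at) reads hsp-16.41 alone. The other 2 are shared, 189087_s_at by hsp-16.1 and hsp-16.11 and 172901_x_at by hsp-16.48 and hsp-16.49, so the genes within each of these pairs could not be told apart. By these symbols, no probe set joined a member to a gene outside the family. Matches of the probes to other transcripts were not examined.

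HSP-16 proteins are small chaperones of the alpha-crystallin family, which bind unfolding proteins and keep them from clumping until other chaperones refold them. Their genes are nearly silent in unstressed animals and are switched on strongly by heat, through the heat-shock transcription factor HSF-1. The hsp-16.2 promoter in particular is widely used as a reporter of heat stress. The family falls into 2 protein classes, hsp-16.1, hsp-16.11 and hsp-16.2 in one and hsp-16.48, hsp-16.49 and hsp-16.41 in the other. In the WBcel235 gene table, hsp-16.1, hsp-16.48, hsp-16.49 and hsp-16.11 follow one another directly among protein-coding genes. The genes hsp-16.2 and hsp-16.41 neighbour each other elsewhere. Each cluster thus holds both classes, and each shared probe set reads the duplicated copies of 1 class in the cluster of 4 genes.

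RNA came from whole bodies of synchronized wild-type N2 Bristol adults raised at 23 °C for 2.5 days from embryos. The groups were animals taken just before the move (0 h, 4 arrays) and 1 h (2 arrays), 2 h (2 arrays) and 4 h (4 arrays) after it to 17 °C. None of the 12 arrays held animals left at 23 °C for 1 h to 4 h, so the effects of temperature, time and handling cannot be told apart in a change from 0 h. Nothing in the labels states that replicates were separate cultures, and p-values measure the spread between these samples only. Values are log2 signals made by the authors with RMA, a method that normalises arrays to one distribution. Array medians lay from 5.502 to 5.57 and lower quartiles from 3.53 to 3.64, and Pearson's r between arrays across probe sets was 0.994 to 0.998. Background on the arrays was not measured here, which makes the size of a change ending near the lower quartile uncertain. In whole-animal RNA, fewer cells of a type and less RNA per cell cannot be told apart.

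Markers of the main tissues were read on all arrays, with 29 of 29 measured and log2 levels from 2.12 (the embryonic gene med-1) to 13.97 (the yolk gene vit-6). Of these, 3 were called lower and 0 higher at 4 h in the linear model described below, against 0.962% and 1.33% of all probe sets. They were the embryonic gene sdz-24 (-0.90), the sperm gene ssp-10 (-0.52) and the intestinal proton pump gene vha-6 (-0.30, adjusted p = 0.0421), whose call was lost without any of 11 single arrays (adjusted p up to 0.127). The summed log2 levels of a list overlapped between 0 h and 4 h for 7 of 8 tissues. The exception was the 3 embryonic markers, whose sum was at least 12.02 at 0 h and at most 11.64 at 4 h. Only sdz-24 among them was called, while end-1 changed by -0.11 (limma adjusted p = 0.789) and med-1 by 0.15 (adjusted p = 0.668). The part of the tissue markers in the changes below was not tested.

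All 4 hsp-16 probe sets fell between 0 h and 4 h, and they included the deepest falls on the arrays. In the linear model over all arrays (limma, p-values adjusted by Benjamini-Hochberg over all probe sets, threshold 0.05), 4 of 4 were called lower, against 0.962% of all probe sets. Their median log2 change was -1.95, against -0.01 over all probe sets. The shared probe sets ranked first and second among all 22548 by size of fall, hsp-16.2 ranked 10 and hsp-16.41 ranked 38. On all 4 probe sets, every array at 4 h lay below every array at 0 h, a separation that 4.54% of all probe sets showed.

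The deepest fall was that of the shared hsp-16.48 and hsp-16.49 probe set. At 0 h its log2 signals were 5.79, 6.11, 6.34 and 7.09 in replicates 1 to 4, at 1 h 6.11 and 5.69, at 2 h 5.07 and 5.11, and at 4 h 3.35, 3.002, 3.803 and 4.03. The arrays at 2 h and at 4 h lay wholly below those at 0 h, whereas those at 1 h lay within or just under the 0 h range. The mean went from 6.33 ± 0.554 at 0 h to 3.55 ± 0.461 at 4 h (SD, n = 4 each), a 6.89-fold lower signal. On the log2 scale the fall was -2.79, with SE 0.258 and a limma adjusted p = 0.000127. The 4 h mean stood at percentile 24.7 of all probe sets, at the lower quartile, and the 0 h mean at percentile 57.1. These genes encode the HSP-16.48 class of chaperone.

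Their neighbours hsp-16.1 and hsp-16.11, of the other protein class, fell nearly as far. Their shared probe set read 7.31, 7.37, 7.56 and 8.05 at 0 h, 7.39 and 7.08 at 1 h, 6.53 and 6.78 at 2 h, and 4.86, 4.37, 5.41 and 5.44 at 4 h. Again the 2 h and 4 h arrays were all below the 0 h arrays, and 1 of the 1 h arrays was inside their range. The mean fell from 7.57 ± 0.335 to 5.02 ± 0.509 (SD, n = 4 each), a 5.87-fold lower signal with a log2 change of -2.55 (SE 0.222, limma adjusted p = 0.000108). At 4 h this was the one hsp-16 probe set that stood well above the lower quartile, at percentile 44.5 and by 0.78 to 1.91 log2 units on the single arrays. The 4 h means of the other 3 stood at percentile 27.4 or lower.

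The gene hsp-16.2, of the other cluster, fell by a smaller amount, with most of it after 2 h. Its log2 signals were 4.69, 4.95, 5.21 and 5.46 at 0 h, 5.08 and 4.99 at 1 h, 4.63 and 4.97 at 2 h, and 2.94, 4.02, 3.91 and 4.08 at 4 h. Signals at 1 h lay inside the 0 h range and those at 2 h inside or just under it, and all arrays at 4 h lay below it. The mean went from 5.08 ± 0.329 to 3.74 ± 0.536 (SD, n = 4 each), a log2 change of -1.34 (2.53-fold lower, SE 0.226, limma adjusted p = 0.00689). Replicate 1 at 4 h lay more than 0.9 log2 units under the other 3, and without that array the change was -1.07 (adjusted p = 0.00326).

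The gene hsp-16.41, the neighbour of hsp-16.2, was close to the bottom of the signal range throughout. It read 3.28, 3.42, 3.34 and 3.99 at 0 h, 3.81 and 3.48 at 1 h, 3.16 and 3.28 at 2 h, and 2.78, 2.44, 2.60 and 2.87 at 4 h. The 4 h arrays were below all others, and the 0 h arrays overlapped with those of 1 h and of 2 h. Its mean fell from 3.51 ± 0.327 to 2.67 ± 0.191 (SD, n = 4 each), a log2 change of -0.84 (1.79-fold lower, SE 0.148, limma adjusted p = 0.00917). That took it from percentile 23.6 to percentile 11.04, so both ends of the fall were at or under the lower quartile, and its size is uncertain.

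**Figure D1:**
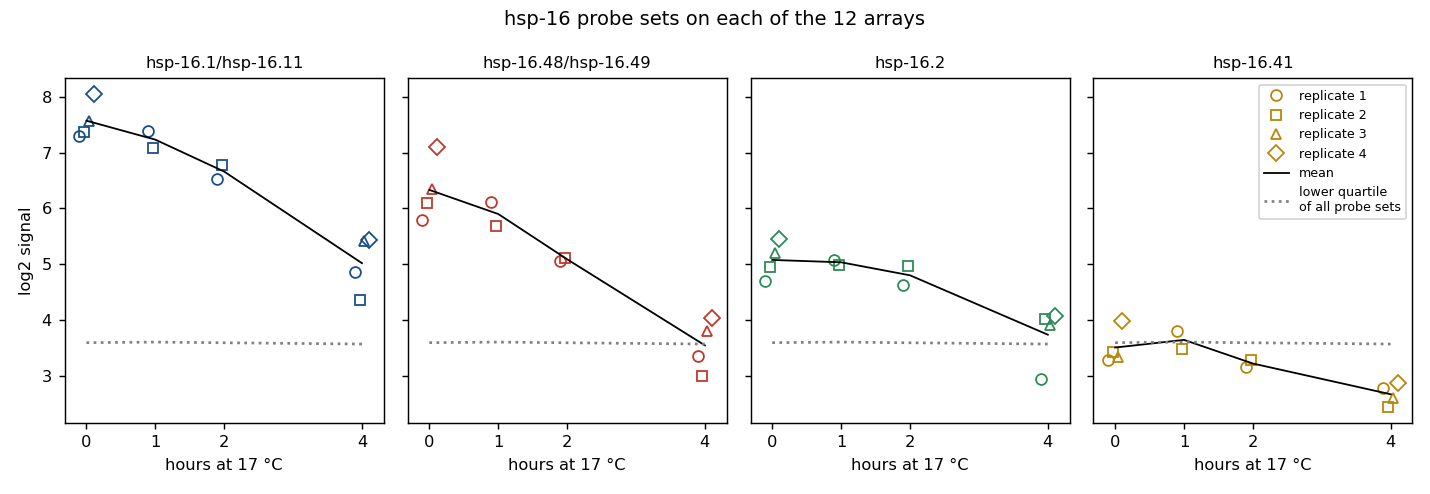
Log2 signal of each hsp-16 probe set (vertical axis) on each of the 12 arrays against hours at 17 °C (horizontal axis), with 1 symbol per replicate number, the group mean as a line and the lower quartile of all probe sets dotted. All 4 h arrays lie below all 0 h arrays in each panel, and hsp-16.41 starts at the dotted line.

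The order of the group means was the same for 3 of the 4 probe sets, with 0 h highest, then 1 h, 2 h and 4 h. The exception was hsp-16.41, whose 1 h mean (3.65) was above its 0 h mean (3.51), a difference within the spread of the 0 h arrays. At 1 h no member was called lower (0 of 4 in limma, against 0% of all probe sets). An unadjusted p under 0.05 was found for 0 of 4, against 6.42% of all probe sets. The log2 changes at 1 h ran from -0.43 for hsp-16.48/hsp-16.49 to 0.14 for hsp-16.41, with adjusted p from 0.877 to 0.993. The 95% interval for hsp-16.48/hsp-16.49 at 1 h, from -1.11 to 0.25, leaves room for a sizeable early fall.

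At 2 h the cluster of 4 genes was lower in value but missed the threshold. The log2 change was -1.24 for hsp-16.48/hsp-16.49 (95% interval -1.93 to -0.56, limma adjusted p = 0.0978) and -0.91 for hsp-16.1/hsp-16.11 (-1.499 to -0.33, adjusted p = 0.165). These were the members with an unadjusted p under 0.05, which 12.8% of all probe sets had. They were also the members whose 2 h arrays lay below all 0 h arrays, a separation found in 11.7% of all probe sets. Changes of hsp-16.2 (-0.28, adjusted p = 0.744) and hsp-16.41 (-0.29, adjusted p = 0.57) were smaller. In all, 0 of 4 were called lower at 2 h in limma, against 0.359% of all probe sets. With the arrays of 1 h and 2 h pooled (n = 4), 0 of 4 passed in limma, against 0.231% of all probe sets called lower. An unadjusted p under 0.05 was found for 2 of 4, against 11.8% of all probe sets. The changes then ran from -0.84 for hsp-16.48/hsp-16.49 (adjusted p = 0.216) to -0.07 for hsp-16.41 (adjusted p = 0.899).

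On the log2 scale most of the fall in the means lay after 2 h. In the main fit, the larger part of the loss in unlogged signal on both shared probe sets came by 2 h, where neither was called in limma. They were 2.37-fold (hsp-16.48/hsp-16.49) and 1.88-fold (hsp-16.1/hsp-16.11) lower than 0 h at 2 h, and 6.89-fold and 5.87-fold lower at 4 h. With the replicate number as a block in the model, hsp-16.1/hsp-16.11 changed by -0.59 at 2 h and -2.55 at 4 h. The smaller part of its unlogged loss then came by 2 h, so this timing is not settled. At 2 h, the share of the 4 h log2 change already present was 44.6% for hsp-16.48/hsp-16.49, 35.7% for hsp-16.1/hsp-16.11, 34.2% for hsp-16.41 and 20.6% for hsp-16.2. These shares are loose. Without single arrays they ran from 7.93% to 33.2% for hsp-16.2 and from 18.6% to 41.7% for hsp-16.41, and for the shared probe sets from 30.8% to 40.6% (hsp-16.1/hsp-16.11) and from 39.1% to 48.0% (hsp-16.48/hsp-16.49). With the replicate number as a block in the model they were 31.1%, 23.2%, 21.03% and 1.34% in the order first given, so no order among the members is drawn from them.

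From 1 h and 2 h together to 4 h, 3 of 4 were called lower, against 0.235% of all probe sets. These were hsp-16.48/hsp-16.49 (-1.95, SE 0.258, limma adjusted p = 0.00521), hsp-16.1/hsp-16.11 (-1.93, SE 0.222, adjusted p = 0.00396) and hsp-16.2 (-1.18, SE 0.226, adjusted p = 0.0477). The gene hsp-16.41 changed by -0.76 and just missed (adjusted p = 0.0501). Both values lie at the threshold. The call of hsp-16.2 was lost without any of 9 single arrays (adjusted p up to 0.143), after repeated quantile normalization (0.0592) and with array weights (0.0558). The gene hsp-16.41 was called with the replicate block (-0.87, adjusted p = 0.0138), with trend and robust eBayes settings (0.0192) and without replicate 4 at 0 h (0.0105).

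In single steps, with 2 arrays at 1 h and at 2 h, fewer differences were called. From 1 h to 2 h, 0 of 4 passed in limma, against 0% of all probe sets called lower. An unadjusted p under 0.05 was found for 1 of 4, against 6.11% of all probe sets. The 2 h arrays nevertheless lay under both 1 h arrays for each of the 4, a separation of 2 against 2 that 15.4% of all probe sets showed. From 2 h to 4 h, 0 of 4 passed in limma, against 0.031% of all probe sets called lower. All 4 had an unadjusted p under 0.05, as did 10.7% of all probe sets. The change of hsp-16.1/hsp-16.11 in this step, -1.64 (adjusted p = 0.0618), was the largest fall of all probe sets, and that of hsp-16.48/hsp-16.49 was -1.54 (adjusted p = 0.132). With the replicate block 3 of 4 were called in this step: hsp-16.1/hsp-16.11 (-1.96, adjusted p = 0.00866), hsp-16.48/hsp-16.49 (-1.92, 0.00866) and hsp-16.2 (-1.32, 0.0385). The share of all probe sets called with the block was not recorded, so this count has no background beside it. The 2 h arrays carry replicate numbers 1 and 2 only. Over all probe sets, 2 h arrays hardly deviated together with same-numbered arrays of 0 h (r = -0.0532 to 0.00773) or 4 h (0.0306 to 0.0842). The block at 2 h thus rests on a pairing that the labels do not give and these values show little of. Over the whole course, the moderated F test of any change over time called 4 of 4 (limma adjusted p from 0.000522 to 0.0213), against 1.77% of all probe sets. Without replicate 3 at 4 h it called 2 of 4. At 4 h all 4 members were below every array of the other times, as were 1.11% of all probe sets.

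**Figure D2:**
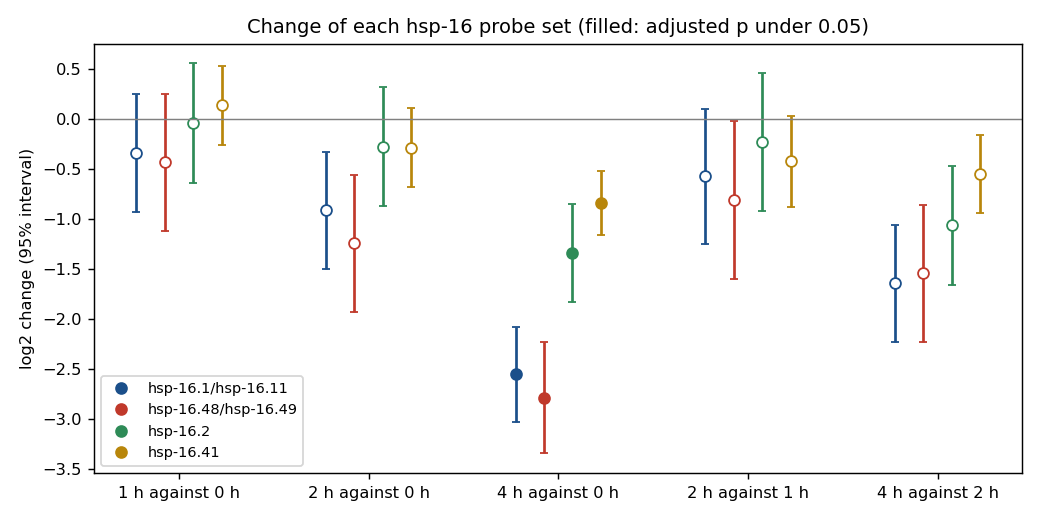
Log2 change of each hsp-16 probe set (vertical axis) in 5 comparisons (horizontal axis), with 95% intervals from the linear model and filled points where the adjusted p was under 0.05. The filled points are those of 4 h against 0 h, from -2.79 to -0.84, and the 1 h points lie around 0.

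**Figure D3:**
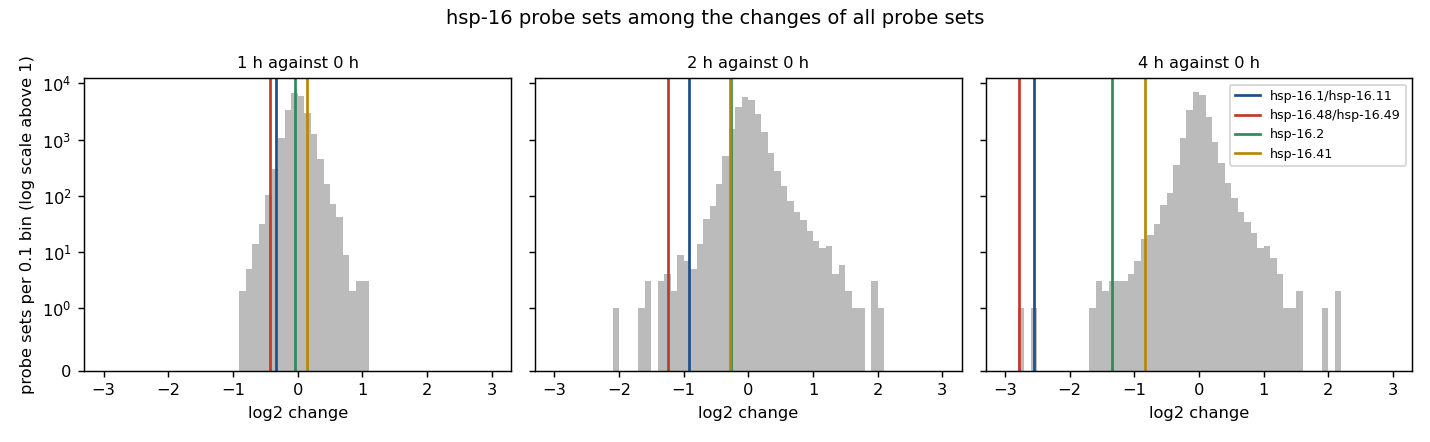
Number of probe sets (vertical axis, log scale above 1) by log2 change from 0 h (horizontal axis) at 1 h, 2 h and 4 h, with the hsp-16 probe sets as vertical lines. At 1 h the lines lie within the range of the distribution, and at 4 h the shared probe sets (-2.79 and -2.55) lie beyond its lower end.

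In the means the cluster of 4 genes had the larger falls, and the test of this sits at the limit of what these arrays allow. For each pair of probe sets the within-array log2 difference was compared between the 4 arrays at 0 h and the 4 at 4 h by a two-sided exact permutation test, over 6 pairs. Every pair that joined the clusters passed (4 of 6 pairs, adjusted p = 0.0429, exact p = 0.0286, the smallest that 4 against 4 arrays allow). This test took the arrays as unpaired, although same-numbered arrays of 0 h and 4 h deviated together over all probe sets (r = 0.169 to 0.314). A test that keeps this pairing cannot reach the threshold here. Without any single array, or within replicate numbers, 0 of 6 pairs passed, since the smallest exact p is then 0.0571 or 0.125. Within the first protein class, hsp-16.1/hsp-16.11 fell by 1.21 log2 units more than hsp-16.2 (SE 0.338). Across classes, hsp-16.48/hsp-16.49 fell by 1.45 more than hsp-16.2 (SE 0.324). Against hsp-16.41, hsp-16.48/hsp-16.49 fell by 1.95 more (SE 0.225) and hsp-16.1/hsp-16.11 fell by 1.72 more (SE 0.214). With hsp-16.41 at or under the lower quartile at both times, these sizes are as uncertain as its own fall.

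Within the cluster of 4 genes the falls differed by 0.23 (SE 0.127), and between hsp-16.2 and hsp-16.41 by 0.50 (SE 0.327), each with an adjusted p of 0.143 in the exact permutation test. A p of that size does not show that they fell alike. The members that fell less were also those with the dimmer signal at 0 h, at percentiles 45.2 (hsp-16.2) and 23.6 (hsp-16.41) against 67.0 and 57.1 for the shared probe sets. The part of dim signal, and of a shared probe set adding up 2 genes, in these differences was not tested.

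Replicates of one time did not sit at one level. Replicate 4 had the highest signal of the 4 arrays at 0 h on all 4 probe sets, and again at 4 h on all 4. At 0 h it exceeded the lowest array by 1.30 log2 units on hsp-16.48/hsp-16.49 and by 0.71 to 0.76 on the others. Within replicate numbers, the change from 0 h to 4 h ran from -3.10 to -2.44 for hsp-16.48/hsp-16.49 and from -3.01 to -2.15 for hsp-16.1/hsp-16.11. It ran from -1.75 to -0.93 for hsp-16.2 and from -1.12 to -0.50 for hsp-16.41, so all 4 numbers fell on each probe set. Arrays at 1 h and 2 h carried replicate numbers 1 and 2 only, whose 0 h levels were lower than those of replicates 3 and 4 on hsp-16.2 and on both shared probe sets. Against the 0 h array of its own number, replicate 1 at 1 h was higher on all 4 probe sets, by 0.08 to 0.53. The same difference in replicate 2 was -0.30 on hsp-16.1/hsp-16.11, -0.42 on hsp-16.48/hsp-16.49, 0.04 on hsp-16.2 and 0.06 on hsp-16.41, so the 2 numbers did not move one way at 1 h. Over all probe sets, same-numbered arrays of 0 h and 1 h did not deviate together (r = -0.075 to -0.0701).

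Other heat-shock and stress genes were mostly not called at 4 h, and most lay below 0 by small amounts. Over 6 lists of 57 genes, 54 of them measured by 54 probe sets, 0 probe sets rose and 4 fell at 4 h, against 1.33% and 0.962% of all probe sets. Their median log2 change was -0.07, and 44 of the 54 lay below 0, as did 53.1% of all probe sets. The median size of change over all probe sets, in either direction, was 0.081. Whether the lists leaned lower as a set was not tested. An unadjusted p under 0.05 was found for 11, against 12.7% of all probe sets. The inducible HSP70 genes F44E5.4 and F44E5.5, which share both of their probe sets, fell on each of them. HSP70 proteins refold unfolded proteins with ATP. Probe set 190958_s_at read 4.48, 4.79, 4.76 and 4.75 at 0 h, 4.05 and 3.69 at 1 h, 3.59 and 3.52 at 2 h, and 3.87, 4.10, 3.75 and 3.56 at 4 h. All later arrays were below the 0 h arrays, and the 2 h arrays overlapped with those of 4 h.

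Its log2 changes were -0.82 at 1 h (limma adjusted p = 0.227), -1.14 at 2 h (adjusted p = 0.00259) and -0.88 at 4 h (SE 0.119, adjusted p = 0.0018). The other probe set of this pair, 171941_s_at, changed by -0.44, -0.58 and -0.76 (adjusted p = 0.295, 0.0132 and 0.000389). With a mean of 3.30 at 0 h and 2.55 at 4 h it lay under the lower quartile, so these sizes are uncertain. The mean of 190958_s_at was 3.55 at 2 h, under the lower quartile of 3.59, and 3.82 at 4 h, not far above it. Its sizes are therefore uncertain too. The 2 h calls were lost without replicate 2 at 2 h (adjusted p = 0.0608 and 0.21). On 190958_s_at the 2 h value was thus larger than the 4 h value, while on 171941_s_at and on all 4 hsp-16 probe sets the 4 h value was the larger. That difference in course was not tested, and both sets of values rest on the same 0 h arrays. The third gene of this list, hsp-70, changed by -0.34 at 4 h (adjusted p = 0.0729).

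Of 11 other small heat-shock and alpha-crystallin genes, 0 rose and 0 fell at 4 h in limma, and 0 had an unadjusted p under 0.05. Their median at 4 h was -0.07 and their largest value -0.23, for hsp-12.1 (adjusted p = 0.604), followed by p in hsp-25 (-0.10, adjusted p = 0.741). The list holds hsp-16.20 (-0.08) and hsp-16.21 (-0.10, adjusted p = 0.743), with 0 h means of 3.09 and 2.78. Both carry the family name in the current annotation but lie outside the 6 genes followed here. The gene sip-1, which encodes a small heat-shock protein of embryos, changed by 0.02 from a 0 h mean of 13.51. Of 6 measured genes among HSF-1 and its regulators, 0 were called at 4 h in limma and 0 had an unadjusted p under 0.05. The gene hsf-1 itself changed by 0.11 (adjusted p = 0.621) and ddl-1, whose product is part of an HSF-1 inhibitory complex, by -0.10 (adjusted p = 0.664).

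Of 19 constitutive cytosolic chaperone genes, 0 were called at 4 h in limma, with 4 at an unadjusted p under 0.05, against 12.7% of all probe sets. All 19 lay below 0, as did 53.1% of all probe sets, with a median of -0.09. The median size of change over all probe sets was 0.081. The lowest were unc-23, an HSP70 co-chaperone gene (-0.33, adjusted p = 0.0593), and cct-3, a chaperonin subunit gene (-0.26, adjusted p = 0.168). Of 4 chaperone genes of the endoplasmic reticulum and mitochondria, 0 were called at 4 h in limma, with 1 at an unadjusted p under 0.05. These were led by hsp-3 (-0.19, adjusted p = 0.193), an HSP70 of the endoplasmic reticulum, and followed by hsp-6 (0.07, adjusted p = 0.789), the mitochondrial HSP70.

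Of 11 measured genes on a list of other stress-inducible genes, 2 fell and 0 rose at 4 h in limma, against 0.962% and 1.33% of all probe sets. The metallothionein gene mtl-1, a metal-binding protein gene, fell by 1.51 (SE 0.174, adjusted p = 0.000525). It read 8.88 to 9.28 at 0 h, 8.87 to 9.44 at 1 h and 2 h, and 7.14 to 8.01 at 4 h, with no overlap of 4 h with the earlier times. The glycerol synthesis gene gpdh-1 fell by 0.88 at 4 h (adjusted p = 0.00348) and by 1.28 at 2 h (adjusted p = 0.00259), a call lost without replicate 2 at 2 h (adjusted p = 0.0591). The lysozyme gene lys-3 rose by 0.87 at 2 h (adjusted p = 0.0335) and stood at 0.04 at 4 h. Its 2 h call was lost without any of 7 single arrays, with adjusted p up to 0.542.

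**Figure D4:**
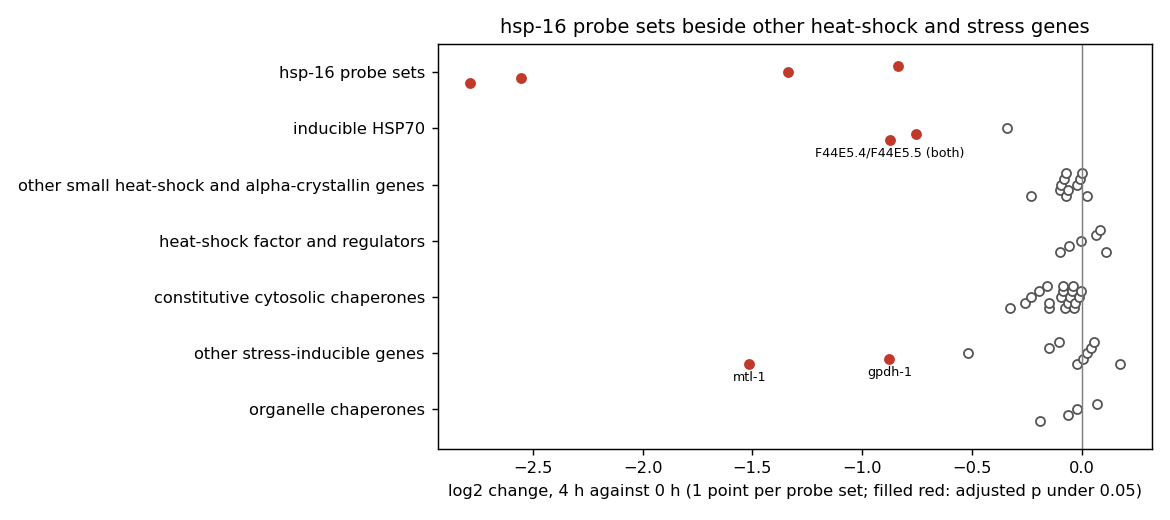
Log2 change from 0 h to 4 h (horizontal axis) of the hsp-16 probe sets and of 6 lists of other heat-shock and stress genes (rows), 1 point per probe set, filled red where the adjusted p was under 0.05. The 4 hsp-16 points lie between -2.79 and -0.84, and the called points of the lists, both F44E5.4/F44E5.5 probe sets, mtl-1 and gpdh-1, between -1.51 and -0.76.

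The genes whose pattern was most like that of the family were found by Pearson's r over the 12 arrays with the mean of the 4 hsp-16 probe sets, among 17116 genes with 1 probe set each. The r values are a description, since arrays of one time share their level and a fall at 4 h alone gives a high r. In all, 35 genes exceeded 0.9. The 10 highest were F44E2.9 (r = 0.975), the short-chain dehydrogenase gene dhs-4 (0.955), the carbonic anhydrase gene cah-4 (0.952), the aldehyde dehydrogenase gene alh-12 (0.95), C05D12.3 (0.947), the respiratory complex I subunit gene ndub-8 (0.946), the cytochrome P450 gene cyp-37B1 (0.942), C05D12.4 (0.94), F56H9.2 (0.936) and mtl-1 (0.936).

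The size of their change differed widely. From 0 h to 4 h, cyp-37B1 fell by 1.57 and mtl-1 by 1.51, as far as hsp-16.2, whereas cah-4 fell by 0.38 and F56H9.2 by 0.30. The smallest value was that of ndub-8 (-0.25). At 2 h the log2 changes of the 10 ran from -0.64 (cyp-37B1) to -0.02 (mtl-1). No test is given for these values, since the genes were chosen on the same arrays for following the family. With the mean of each time taken off, the 5 genes closest to the family were Y71F9B.13 (r = 0.981), ubl-5 (0.961), C13F10.7 (0.952), syf-2 (0.952) and mage-1 (0.94), all with a standard deviation under 0.15 log2 units over the 12 arrays. The genes mtl-1 (0.689) and cyp-37B1 (0.599) were lower on that measure.

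**Figure D5:**
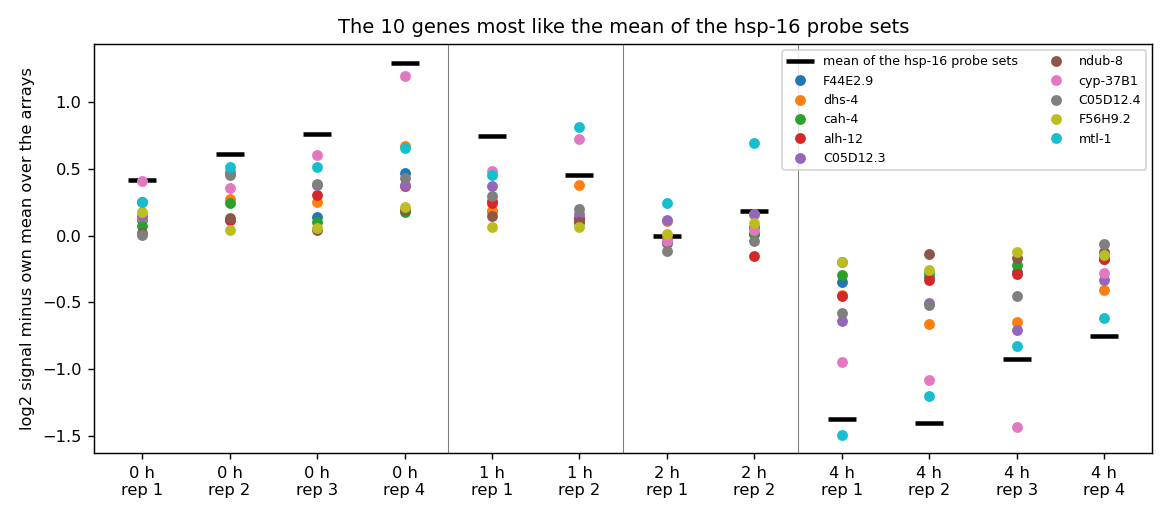
Log2 signal minus the gene's own mean over the arrays (vertical axis) on each of the 12 arrays (horizontal axis) for the mean of the hsp-16 probe sets (black bars) and the 10 genes most like it (points). The black bars and most points drop between 2 h and 4 h, with the family, cyp-37B1 and mtl-1 spanning the widest range.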

How the data were processed

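The 12 Affymetrix arrays of whole N2 Bristol adults were deposited by the authors as log2 signals per probe set, which the submitters' processing notes credit to RMA (version, filters and genome build not given in the sources used here). Base 2 was inferred from that method and the range of the values (1.51 to 14.36). Amplified cDNA was labelled with biotin per the labels' protocols. Ranked values lay within 0.11 of the mean over arrays at each rank. The number of arrays limits the precision.

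Symbols came from the platform annotation (1 symbol for 20766 probe sets, several for 887, none for 895). Of the single symbols, 20701 matched the WBcel235 gene table, which was used for names and neighbours only. Each of 17118 genes was represented by its probe set of highest mean. All 22548 probe sets were fitted with limma 3.58.1 in R 4.3.3 (a mean per time over 12 arrays, eBayes, 8 residual and 5.03 prior degrees of freedom), and checked on simulated data. Tests were two-sided, with Benjamini-Hochberg adjustment over all probe sets.

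Named were all members, in each list the called genes and the 2 of smallest p (hsp-16.20, hsp-16.21 and sip-1 were added after their values were seen), the 10 genes most like the family and the 5 with time means removed. Members and lists were chosen with earlier results of these data known. The listed genes hsf-2, aip-1 and ctl-1 had no single-gene probe set here. Arrays of 0 h and 4 h with one number deviated together (r = 0.169 to 0.314 in 4 pairs), so the numbers were taken to pair them, from the values and not from the labels. Same-numbered arrays of 0 h with 1 h or 2 h did not (-0.075 to 0.00773). Alternatives were a replicate block, single arrays left out, a filter on dim probe sets, repeated quantile normalization, other eBayes settings, array weights and subsets of arrays.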

Additional observations from a re-analysis of the deposited data

Results flagged for a closer look

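The hsp-16.2 signal of replicate 1 at 4 h (2.94) stood apart from the other 3 arrays of its group (3.91 to 4.08), with a gap of 0.854 of the group's range. Of 8 groups of 4 arrays examined on the hsp-16 probe sets it was the one set apart in this way. Chance does so in about 1 of 20 single groups, so 1 case among 8 groups, which share arrays, is more likely than that. On the other 3 hsp-16 probe sets the same array was within the spread of its group. The change from 0 h was deeper at 4 h than at 1 h and 2 h together for hsp-16.48/hsp-16.49 (by -1.95, limma adjusted p = 0.00521), hsp-16.1/hsp-16.11 (-1.93, adjusted p = 0.00396) and hsp-16.2 (-1.18, adjusted p = 0.0477). That test compares 4 h directly with the earlier arrays.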

How the results depend on the processing

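The 4 calls at 4 h against 0 h held without each of the 12 arrays, with the replicate block (adjusted p from 5.02e-05 to 0.00426), in a fit of the 0 h and 4 h arrays (8 in all), after repeated quantile normalization, with array weights and with other eBayes settings. Leaving out single arrays moved the changes from -2.97 to -2.53 (hsp-16.48/hsp-16.49), -2.69 to -2.34 (hsp-16.1/hsp-16.11), -1.47 to -1.07 (hsp-16.2) and -0.91 to -0.68 (hsp-16.41). Without the dimmer 50% of probe sets, 1 member (hsp-16.1/hsp-16.11) was left to test, so counts became 1 at 4 h against 0 h, against 1 h and 2 h together and against 2 h, and 1 for any change over time. With the replicate block the count became 1 at 2 h against 0 h (hsp-16.48/hsp-16.49, -0.86, adjusted p = 0.039) and 3 at 4 h against 2 h, and with trend and robust eBayes settings the latter was 1. The cause was not tested, and the shares of all probe sets called under these settings were not recorded. Same-numbered arrays of 0 h with 1 h or 2 h did not deviate together. Block results at 1 h and 2 h thus rest on a pairing with 0 h that the values do not show. Single arrays left out gave 2 to 3 calls for 4 h against 1 h and 2 h together, 2 to 4 for any change over time, and 4 to 6 among the other pathway genes (5 with the block, adding gst-4 at adjusted p = 0.0444). For the differences between probe sets, counts fell to 0 without any single array (smallest possible exact p = 0.0571) and within replicate numbers as a replicate block (0.125), since neither design can reach the threshold.

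Uncalled early changes turned sign. For hsp-16.2 at 1 h the value was 0.22 with the replicate block, 0.21 with replicates 1 and 2 only, and -0.17 to 0.0841 without single arrays. At 1 h and 2 h together, hsp-16.2 was at 0.10 and 0.10, and hsp-16.41 at 0.0359 and 0.0839, under the same settings. Without single arrays, hsp-16.41 ranged from -0.0241 to 0.30 at 1 h and from -0.16 to 0.0863 at 1 h and 2 h together. The direction of early change of these genes is therefore not settled. The replicate block changed no call at 4 h against 0 h of a member, of the 3 called tissue markers, or of the genes named from the other lists and the 10 most like the family, apart from gst-4. For single genes outside the family, the block and the left-out arrays were chosen after seeing the data.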
